A study of Mus musculus with 6 samples.

Results

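The enzymes and helpers that modify, fold and trim procollagen were examined in bulk RNA sequencing of sorted aortic cells from mice, as the 10 genes *Plod1*, *Plod2*, *Plod3*, *P4ha1*, *P4ha2*, *P4hb*, *Serpinh1*, *Pcolce*, *Pcolce2* and *Bmp1*. They were taken by gene name, and all 10 were found among the 24421 rows of the expression matrix. All mice were 129S6/SvEv animals of 8 weeks that carried a conditional *CAG-Sun1/sfGFP* tracer allele, whose GFP is switched on permanently by Cre. In one group the Cre was *Mef2cSHF*, which marks descendants of the secondary heart field (SHF), and in the other it was *Wnt1-Cre2*, which marks descendants of the cardiac neural crest (CNC). There were 3 libraries of each lineage and no untraced or mutant group, so the comparison asks how the lineages differ in these aortas. The aortic root and ascending aorta were digested with collagenase II, elastase and DNase I at body temperature, living GFP+ cells were sorted, and their RNA was amplified by SmartSeq2. Values are TPM, a level per transcript length and relative to the total of the library, from which sequencing depth cannot be read. How many animals went into each library is not given in the sources used here, and p-values measure the spread between these libraries.

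Either Cre marks a lineage and not a cell type, and the sort had no further marker. In the study these cells are called vascular smooth muscle cells. Of 10 smooth muscle markers, 10 were above 0 in all SHF libraries and 8 in all CNC libraries, with summed levels of 1463 to 3076 TPM in SHF and 1297 to 1999 TPM in CNC. The 10 fibroblast markers were all above 0 in every library, with summed levels of 35333 to 53015 TPM in SHF and 39011 to 49998 TPM in CNC, led by *Gsn*, and exceeded the smooth muscle sum in every library. The 8 endothelial markers summed to between 51.22 and 580.7 TPM in SHF and between 21.79 and 37.86 TPM in CNC, where 5 of them were at 0 in each library. The 6 cardiomyocyte markers summed to between 87.44 and 115.9 TPM in SHF and at most 37.89 TPM in CNC. *Xist*, transcribed from the inactive X chromosome of females, was above 0 only in SHF replicates 2 and 3 (51.95 and 38.76 TPM), and the Y-linked *Ddx3y* was above 0 only in SHF replicate 1 and the 3 CNC libraries (42.24 to 61.27 TPM). Results are therefore also given for the libraries with Y-linked transcripts alone, which leaves 1 SHF library against 3 CNC libraries.

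Fibrillar collagens are made as procollagen chains that enter the endoplasmic reticulum, where prolyl hydroxylases modify prolines so that the triple helix is stable, and lysyl hydroxylases modify lysines that later carry sugars and cross-links. The chaperone HSP47, encoded by *Serpinh1*, binds the folded helix and leaves it after export. Outside the cell, or on the way there, proteinases remove the propeptides, and the trimmed molecules assemble into fibrils. The wall of the aorta depends on these fibrils, mainly of collagen types I and III, for its strength.

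All 10 genes are annotated as protein coding on GRCm38. *Plod1* lies at chr4:147909753-147936767, *Plod2* at chr9:92542223-92608428 and *Plod3* at chr5:136987019-136996648. *P4ha1* lies at chr10:59323296-59373304, *P4ha2* at chr11:54100095-54131665 and *P4hb* at chr11:120560298-120573253. *Serpinh1* lies at chr7:99345376-99353239, *Pcolce* at chr5:137605103-137613784, *Pcolce2* at chr9:95637601-95698096 and *Bmp1* at chr14:70474558-70520234. Windows of 250 bases before the transcription start were available from RefSeq for 8 of the 10 genes, all but *Plod2* and *Bmp1*. They were searched on both strands for ACGTG (the core of the hypoxia response element), CCAAT, GAANNTTC (the core of the heat shock element) and TATAAA. The motif ACGTG was found in 5 of the 8 windows (*Plod3*, *P4ha1*, *P4ha2*, *P4hb* and *Serpinh1*), CCAAT in 2 (*Plod3* and *P4hb*) and TATAAA in 1 (*Plod1*). Of all 32851 windows of this length, 16.6% hold ACGTG, 33.8% CCAAT, 6.69% GAANNTTC and 12.4% TATAAA. GAANNTTC was found in none of the 8, and the windows of *Pcolce* and *Pcolce2* held none of the 4 motifs. A match is a match of letters and says nothing of whether a factor binds there. Shown first are the windows of *Serpinh1*, chr7:99353240-99353489 on the minus strand, and *Pcolce2*, chr9:95637378-95637627 on the plus strand, the genes whose libraries did not overlap between lineages. The windows of the paralogs *P4ha1*, chr10:59323046-59323295, and *P4ha2*, chr11:54100674-54100923, both on the plus strand, follow because each holds 1 ACGTG match. They are given 5′ to 3′ along the gene from GRCm38.p6, and capitals mark ACGTG on either strand.
Serpinh1: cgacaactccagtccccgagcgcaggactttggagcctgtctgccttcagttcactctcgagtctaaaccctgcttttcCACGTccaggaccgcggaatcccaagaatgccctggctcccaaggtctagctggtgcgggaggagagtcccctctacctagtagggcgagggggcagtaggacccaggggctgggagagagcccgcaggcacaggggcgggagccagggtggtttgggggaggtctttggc
Pcolce2: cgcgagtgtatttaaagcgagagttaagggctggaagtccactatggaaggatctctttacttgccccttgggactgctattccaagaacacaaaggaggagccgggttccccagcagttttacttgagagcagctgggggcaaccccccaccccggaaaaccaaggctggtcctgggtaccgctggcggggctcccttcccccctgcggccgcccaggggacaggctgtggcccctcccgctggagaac
P4ha1: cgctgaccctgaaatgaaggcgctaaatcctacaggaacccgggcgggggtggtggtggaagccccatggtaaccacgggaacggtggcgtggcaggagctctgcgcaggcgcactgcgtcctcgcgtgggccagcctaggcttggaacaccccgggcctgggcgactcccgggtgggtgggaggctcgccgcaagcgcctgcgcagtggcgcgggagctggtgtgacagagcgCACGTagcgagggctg
P4ha2: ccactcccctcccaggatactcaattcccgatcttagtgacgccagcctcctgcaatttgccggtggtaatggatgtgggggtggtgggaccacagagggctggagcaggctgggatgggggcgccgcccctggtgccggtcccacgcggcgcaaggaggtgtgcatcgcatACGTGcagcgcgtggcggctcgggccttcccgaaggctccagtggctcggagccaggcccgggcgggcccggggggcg
The match begins 171 bases before the start in *Serpinh1*, 16 bases before it in *P4ha1* and 78 bases before it in *P4ha2*.

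All 10 transcripts were above 0 in every library, with single values from 30.74 to 2452 TPM. By comparison, 409 of the 4039 rows whose mean reached 30 TPM were at 0 in some library. By mean level over the 6 libraries the genes fell into a high and a low set that did not mix in any library. The high set was *Pcolce* (1949 TPM, rank 70 in the matrix), *Serpinh1* (1323 TPM, rank 112), *P4hb* (1233 TPM, rank 123) and *Pcolce2* (615 TPM, rank 248). The low set was *Bmp1* (161.9 TPM), *P4ha1* (160.1 TPM), *P4ha2* (103.2 TPM), *Plod3* (100.6 TPM), *Plod2* (84.02 TPM) and *Plod1* (83.62 TPM). The lowest single value of the high set was 334.97 TPM, and the highest of the low set was 212.89 TPM. Within the low set the ranges over libraries overlapped between all neighbours in this order, and within the high set too. The plot of levels by library shows this gap and the spread of each gene.

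**Figure D1:**
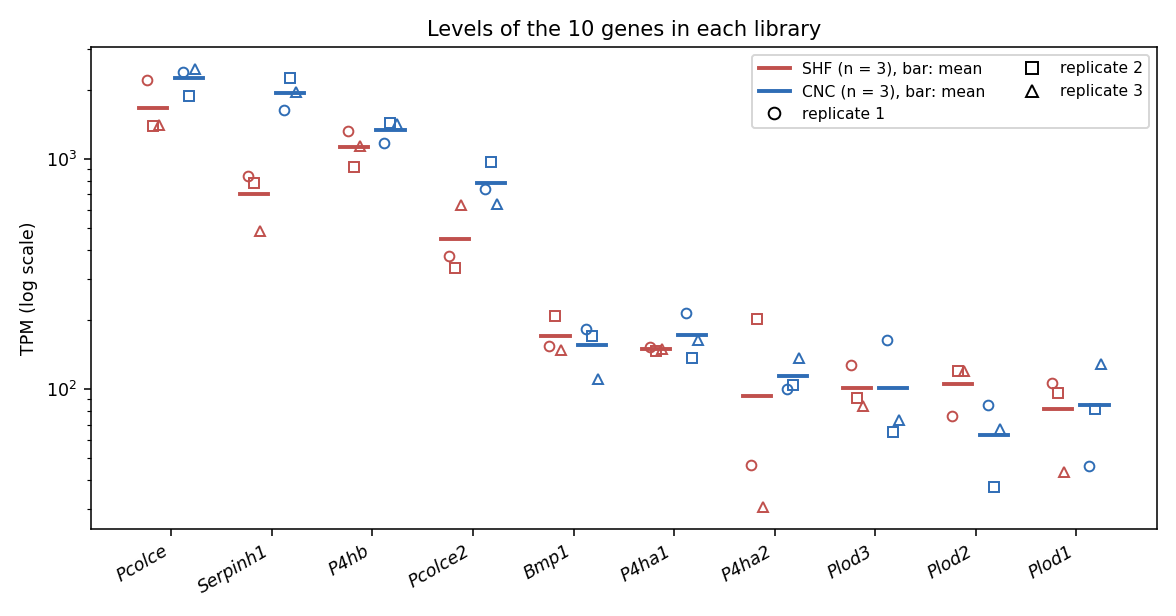
TPM of the 10 genes in each library on a log axis, with SHF in red, CNC in blue, a symbol for each replicate number and a bar at the mean of 3 libraries. The *Serpinh1* libraries of CNC, 1638 to 2240 TPM, all lie above those of SHF, 484 to 843 TPM, while most other genes overlap.

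*Serpinh1*, which encodes the collagen chaperone HSP47, was the member that differed most between lineages. In SHF replicates 1, 2 and 3 it was at 842.93, 788.68 and 483.53 TPM. The CNC replicates stood at 1637.88, 2240.43 and 1945.29 TPM. Every CNC library was above every SHF library, and the lowest CNC library was well above the highest SHF library. The means were 705 ± 194 TPM in SHF and 1941 ± 301 TPM in CNC (SD, n = 3), a level 2.75-fold higher in CNC. On the log2(TPM + 1) scale the difference, SHF minus CNC, was -1.49 ± 0.28 (SE; 95% confidence interval -2.10 to -0.87), with an unadjusted limma p of 0.000239, the third lowest of the 10185 genes tested. After Benjamini-Hochberg adjustment over those genes the limma p was 0.465, so *Serpinh1* did not pass the threshold of 0.05. The exact two-sided permutation test gave p = 0.1, the smallest value that 3 libraries against 3 allow. With only the libraries with Y-linked transcripts the difference was -1.19, and leaving out any 1 library kept it between -1.64 and -1.24. In bulk samples, fewer cells that make a transcript and less of it per cell cannot be told apart. Endothelial and cardiomyocyte marker sums were higher in every SHF library than in any CNC library, the 5 Schwann cell markers were higher in CNC (21.43 to 66.05 against 1.5 to 15.32 TPM), and fibroblast and smooth muscle sums overlapped. The fibroblast sum is mostly *Gsn* and *Dcn*. By single gene, 8 of the 10 fibroblast markers had a lower limma estimate in SHF (median -0.38), 4 had an unadjusted p under 0.05 (3.17% of all genes tested, higher in CNC) and 0 passed. The libraries of the same 4, named after their values were seen, did not overlap (5.68% of all genes tested), with means in CNC 2.52-fold (*Clec3b*), 2.21-fold (*Pi16*), 1.53-fold (*Mfap5*) and 1.47-fold (*Serpinf1*) those in SHF. The part of these markers in the *Serpinh1* difference was not tested.

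Propeptide processing was represented by *Bmp1*, a proteinase that removes the C-propeptide, and by *Pcolce* and *Pcolce2*, glycoproteins that enhance this cleavage. *Pcolce2* was at 376.64, 334.97 and 631 TPM in SHF and at 741.42, 969.42 and 636.68 TPM in CNC, in replicate order. The lineages did not overlap, but SHF replicate 3 and CNC replicate 3 were nearly equal. Means were 447.5 ± 160.2 and 782.5 ± 170.1 TPM (SD, n = 3), 1.75-fold higher in CNC. The limma difference was -0.84 ± 0.32 (SE; 95% confidence interval -1.54 to -0.14) with an unadjusted p of 0.0233 and an adjusted p of 0.771, which did not pass.

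*Pcolce*, the most abundant of the 10 transcripts, was at 2193.91, 1395.19 and 1399.42 TPM in SHF and at 2386.78, 1866.87 and 2452.19 TPM in CNC. SHF replicate 1 lay inside the CNC range and the other two SHF libraries below it. The limma difference was -0.45 (95% confidence interval -1.01 to 0.11, adjusted p = 0.874), and it was -0.02 among the libraries with Y-linked transcripts, where *Pcolce* was near equal in both lineages. *Bmp1* was at 153.84, 207.12 and 146.96 TPM in SHF and at 182.82, 170.45 and 110.04 TPM in CNC. Its libraries were interleaved, with a limma difference of 0.15 (95% confidence interval -0.69 to 0.99, adjusted p = 0.961). The interval leaves room for a difference in either direction. *Pcolce* transcripts outnumbered those of *Pcolce2* in every library. *Pcolce* made up 85.35%, 80.64% and 68.92% of the pair in SHF and 76.3%, 65.82% and 79.39% in CNC. These shares overlapped (exact permutation p = 0.5). Other proteinases that can act on the C-propeptide, *Tll1*, *Tll2*, *Mep1a* and *Mep1b*, were listed at 0 in all 6 libraries. The exons of *Pcolce* overlap those of *Fbxo24* on the same strand, which was at most at 3.12 TPM, and of an antisense gene, *Gm36266*. The strand setting of the counting is not given in the sources used here.

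Prolyl 4-hydroxylase joins a catalytic alpha subunit, encoded by *P4ha1*, *P4ha2* or *P4ha3*, to protein disulfide isomerase, encoded by *P4hb*, which also serves other proteins. *P4ha1* was the most even of the 10 genes in SHF, at 152.49, 146.76 and 148.41 TPM. In CNC it was at 212.89, 136.36 and 163.51 TPM, on both sides of the SHF values. The coefficient of variation was 2% in SHF and 22.7% in CNC, and the limma difference was -0.17 (95% confidence interval -0.97 to 0.62, adjusted p = 0.95), or 0.00 without CNC replicate 1 and -0.32 without CNC replicate 2.

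*P4ha2* was the most uneven in SHF, at 46.66, 202.05 and 30.74 TPM, against 100.27, 103.65 and 135.72 TPM in CNC. SHF replicate 2 was above every CNC library and the other two SHF libraries were below every one. The highest SHF value was 6.57-fold the lowest, and in CNC 1.35-fold. The limma difference was -0.75 (95% confidence interval -2.18 to 0.69, adjusted p = 0.895), and it was -1.54 when SHF replicate 2 was left out and -0.20 when SHF replicate 3 was.

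*P4hb* was at 1322.33, 919.84 and 1133.78 TPM in SHF and at 1171.01, 1425.63 and 1422.8 TPM in CNC. SHF replicate 1 lay within the CNC range. The limma difference was -0.26 (95% confidence interval -0.80 to 0.28, adjusted p = 0.896), and it was -0.12 without SHF replicate 2, -0.39 without SHF replicate 1 and -0.01 among the libraries with Y-linked transcripts. *P4ha3*, which is not among the 10 genes, was at 18.37 TPM in SHF replicate 1, at 3.12 TPM in CNC replicate 3 and at 0 in the other 4 libraries, and is left out of the shares and ratios that follow. *P4ha1* made up 76.57%, 42.07% and 82.84% of the *P4ha1* and *P4ha2* transcripts in SHF and 67.98%, 56.81% and 54.64% in CNC (exact permutation p = 0.6). The only library in which *P4ha2* exceeded *P4ha1* was SHF replicate 2. *P4hb* exceeded the sum of *P4ha1* and *P4ha2* in every library, by 6.64-, 2.64- and 6.33-fold in SHF and 3.74-, 5.94- and 4.75-fold in CNC.

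The lysyl hydroxylases had the lowest means over all 6 libraries, while in SHF alone the mean of *P4ha2* (93.15 TPM) was below those of *Plod2* and *Plod3*. *Plod1*, which acts on lysines of the helix, was at 106.05, 95.71 and 43.63 TPM in SHF and at 46.26, 81.41 and 128.69 TPM in CNC. Each lineage held both high and low libraries. The limma difference was -0.04 (95% confidence interval -1.28 to 1.19, adjusted p = 0.997), and its sign changed when single libraries were left out.

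*Plod2*, which acts on lysines of the telopeptides that take part in cross-links, had a mean 1.66-fold higher in SHF. It was at 75.95, 119.07 and 119.52 TPM in SHF and at 85.16, 37.54 and 66.86 TPM in CNC. SHF replicates 2 and 3 were above all CNC libraries, and SHF replicate 1 lay among them. Means were 104.8 ± 25.03 and 63.19 ± 24.02 TPM (SD, n = 3), and the limma difference was 0.77 ± 0.50 (SE; 95% confidence interval -0.33 to 1.87, adjusted p = 0.876), which did not pass. It was 0.44 without CNC replicate 2, 1.02 without CNC replicate 1 and 0.34 among the libraries with Y-linked transcripts. Within SHF the endothelial marker sum was also highest in replicates 2 and 3 (580.67 and 463.16 TPM against 51.22 TPM in SHF replicate 1). These are also the libraries with *Xist*. In CNC the endothelial sum was highest in replicate 2 (37.86 TPM), where *Plod2* was lowest. The part of either in the *Plod2* values was not tested.

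*Plod3*, which also transfers sugars onto hydroxylysine, was at 126.64, 91.28 and 84.54 TPM in SHF and at 163.03, 65.18 and 73.21 TPM in CNC. CNC replicate 1 was above all SHF libraries and the other two CNC libraries were below them. The limma difference was 0.11 (95% confidence interval -0.97 to 1.18, adjusted p = 0.98), and its sign changed when single libraries were left out. Exons of *Plod3* overlap those of *Znhit1* on the opposite strand, which was at 6.38 to 39.28 TPM, and of *Mir702* on the same strand, and those of *Plod2* overlap *Gm38391* on the opposite strand. By share of the 3 lysyl hydroxylase transcripts, *Plod2* made up 24.61%, 38.9% and 48.25% in SHF and 28.92%, 20.39% and 24.88% in CNC. The SHF replicate 1 share lay within the CNC range (exact permutation p = 0.3). *Plod1* ranged from 15.71% to 47.88% and *Plod3* from 27.24% to 55.37%, with both extremes of *Plod3* in CNC. Over the 9 shares and ratios examined the Benjamini-Hochberg adjusted exact permutation p was at least 0.771.

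Over all 10 genes, none passed the limma threshold in either direction, and the share of all 10185 genes tested that passed was 0% higher in SHF and 0% higher in CNC. At an unadjusted limma p under 0.05, 2 of the 10 were higher in CNC (*Serpinh1* and *Pcolce2*) and 0 in SHF, where 3.17% and 2.69% of all genes tested were. The libraries of 2 of the 10 did not overlap with CNC higher, and of 0 with SHF higher, where 5.68% and 6.11% of all genes tested did so. Leaving out libraries can only keep or raise such counts, so they are no sign of stability. With CNC higher the count was 4 without SHF replicate 1 (12.1% of all genes tested) and without CNC replicate 2 (10.0%), and 3 without CNC replicate 1 (10.2%), without SHF replicate 2 (9.57%) and among the libraries with Y-linked transcripts (18.6%). With SHF higher it was 1 without SHF replicate 1 (*Plod2*, 12.9% of all genes tested) and 2 without CNC replicate 1 (*Plod2* and *Plod3*, 10.0%), and 0 in the other settings. The limma estimate was lower in SHF for 7 of the 10 and higher for 3, against 4970 lower and 5215 higher of all genes tested. The median difference was -0.22 for the 10 genes and 0.02 for all genes tested. Within lineages the 10 genes had a median SD of 0.37 in SHF and 0.31 in CNC on the log2 scale. For the 1714 genes of like level it was 0.49 and 0.41.

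**Figure D2:**
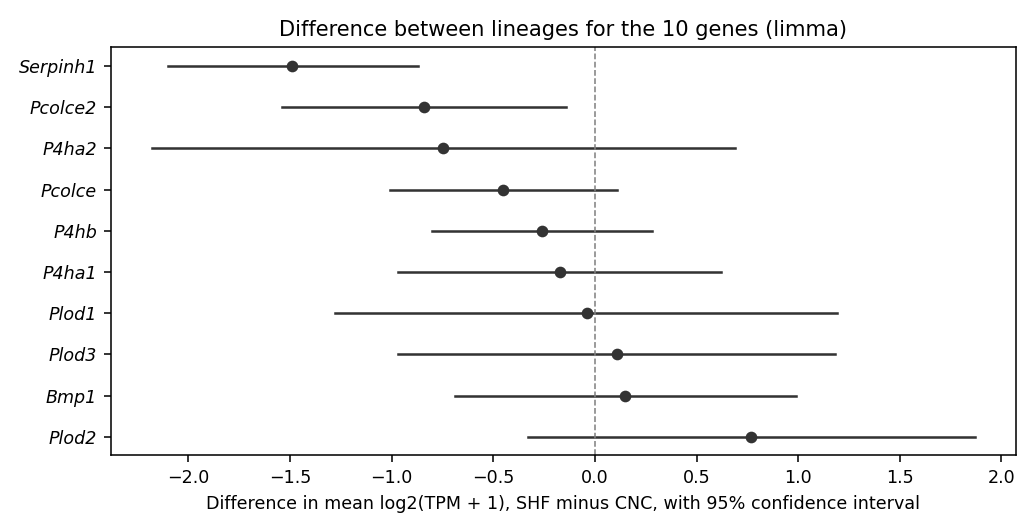
Limma difference in mean log2(TPM + 1), SHF minus CNC, for the 10 genes, with points at the estimate, bars for the 95% confidence interval and a dashed line at 0. The intervals of *Serpinh1* (-2.10 to -0.87) and *Pcolce2* (-1.54 to -0.14) lie below 0 and the other 8 cross it, and no gene passed after adjustment.

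The procollagen chains on which these proteins act were also at higher estimates in CNC. *Col1a1* was at 4541.34, 4004.56 and 4396.34 TPM in SHF and at 11791.92, 7322.3 and 12778.1 TPM in CNC. All CNC libraries were above all SHF libraries, and CNC replicate 2 was the lowest of them. Its limma difference was -1.26 ± 0.24 (SE), with an unadjusted p of 0.00026 and an adjusted p of 0.465. The estimates were -1.08 for *Col1a2*, -0.80 for *Col3a1*, -0.60 for *Col5a1* and -0.54 for *Col5a2*, with adjusted limma p-values of at least 0.475. The libraries of 4 of these 5 chains did not overlap (the exception was *Col5a1*), where 5.68% of all genes tested did not with CNC higher, and 0 of the 5 passed. Of the 10 fibroblast markers 4 did not overlap in the same direction (*Pi16*, *Clec3b*, *Mfap5* and *Serpinf1*, picked after their values were seen). The others overlapped, as did the sum of all 10, and the part of these markers in the chain levels was not tested. Together *Col1a1*, *Col1a2* and *Col3a1* summed to 12432 to 15038 TPM in SHF and 19416 to 33841 TPM in CNC, 2.05-fold higher by mean. The 10 genes summed to 4222 to 5397 TPM in SHF and 6728 to 7135 TPM in CNC, 1.51-fold higher. *Serpinh1* (means of 705 and 1941 TPM) was the largest part of that gap. The means of *Plod2*, *Plod3* and *Bmp1* were not higher in CNC.

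Each gene was therefore also expressed per 1000 TPM of the summed *Col1a1*, *Col1a2* and *Col3a1*. On this scale *Serpinh1* was at 56.05, 63.44 and 32.42 in SHF and at 48.97, 115.4 and 57.48 in CNC. The lineages overlapped, with CNC replicate 2 alone above the SHF range (exact permutation p = 0.5). *Plod2* was at 5.05, 9.58 and 8.01 in SHF and at 2.55, 1.93 and 1.98 in CNC. All SHF libraries were above all CNC libraries, with means of 7.55 ± 2.30 and 2.15 ± 0.34 (SD, n = 3). The exact permutation p was 0.1, the smallest possible. *P4ha1* was at 10.63 ± 1.02 in SHF and 6.07 ± 1.12 in CNC, *Plod3* at 7.14 ± 1.39 and 3.47 ± 1.36, and *Bmp1* at 12.25 ± 3.83 and 5.83 ± 2.78 (SD, n = 3). For these 3 genes too the libraries did not overlap. For *P4hb* the closest libraries were SHF replicate 2 at 73.99 and CNC replicate 2 at 73.43. In all, 5 of the 10 genes did not overlap with SHF higher and 0 with CNC higher. Dividing by a sum that was itself higher in CNC moves all genes the same way, and 22.4% of the 10182 genes so divided did not overlap with SHF higher, against 1.15% with CNC higher. Here too leaving out libraries can only keep or raise the count, which was 7 without SHF replicate 3, where 34.3% of all genes did so, 7 without CNC replicate 2 (38.2%) and 7 among the libraries with Y-linked transcripts (54.0%).

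**Figure D3:**
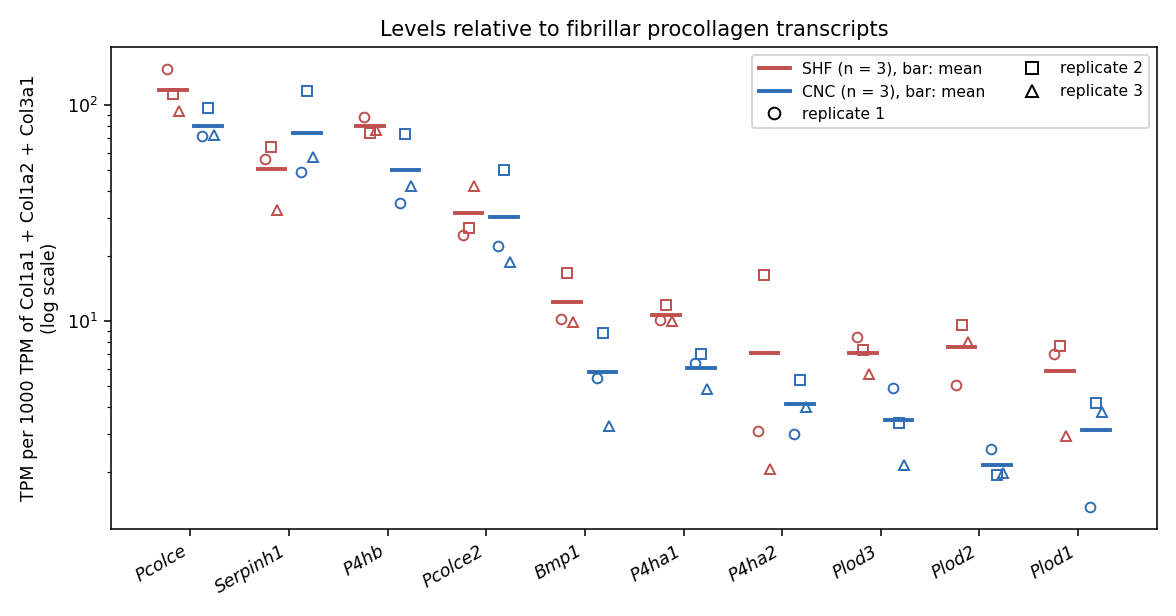
TPM of the 10 genes per 1000 TPM of *Col1a1*, *Col1a2* and *Col3a1* summed, by library on a log axis, with SHF in red, CNC in blue and a bar at the mean of 3 libraries. The *Serpinh1* libraries now overlap, and those of *Plod2* (5.05 to 9.58 in SHF, 1.93 to 2.55 in CNC) are apart.

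Other genes of collagen biosynthesis were taken from a list of 39 rows, of which 32 could be tested. None of the 32 passed the limma threshold. At an unadjusted limma p under 0.05, 6 were higher in CNC and 0 in SHF, and the libraries of 6 did not overlap with CNC higher and of 2 with SHF higher. Of all genes tested these shares were 3.17% and 2.69% for the unadjusted p, and 5.68% and 6.11% for libraries that did not overlap. Estimates were lower in SHF for 24 and higher for 8, with a median of -0.44 beside 0.02 for all genes tested. This median was -0.27 without SHF replicate 2 and 0.01 among the libraries with Y-linked transcripts, where the median of all genes was 0.21.

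Genes of folding in the endoplasmic reticulum made up 5 of the 6 at an unadjusted p under 0.05 and 5 of the 6 that did not overlap with CNC higher. Of the 13 tested, 12 had a lower estimate in SHF, with a median of -0.70. Among the libraries with Y-linked transcripts 8 did, with a median of -0.34 beside 0.21 for all genes, and *Hspa5*, *Ppib*, *Calr*, *Fkbp10* and *Tmem38b* had higher estimates in SHF. Of the 10 fibroblast markers 4 were also higher in all CNC libraries than in any SHF library. These were *Pi16*, *Clec3b*, *Mfap5* and *Serpinf1*, named after their values were seen. The others overlapped, as did the sum of all 10, and the part of these markers in the folding estimates was not tested. The most abundant folding genes were *Hspa5* (BiP, the general chaperone of this compartment) and *Ppib* (cyclophilin B, a prolyl isomerase that acts on procollagen). After them came *Hsp90b1* (GRP94, another general chaperone). *Hspa5* was at 1788.43, 575.43 and 616.07 TPM in SHF and at 1256.66, 1969.39 and 1100.9 TPM in CNC, so SHF replicate 1 stood with the CNC libraries. *Ppib* was at 866.53 to 1364.94 TPM in SHF and 1223.85 to 1340.89 TPM in CNC, with a limma difference of -0.21 (adjusted p = 0.907). *Hsp90b1* was at 586.97 to 832.71 TPM in SHF and 834.77 to 1592.27 TPM in CNC, a limma difference of -0.72 (adjusted p = 0.812), with the nearest libraries almost equal. The other genes that did not overlap, named after their values were seen, were the prolyl isomerases *Fkbp7* (-1.06) and *Fkbp9* (-0.57) and the disulfide isomerases *Pdia4* (-1.21) and *Pdia6* (-0.83), as limma differences with adjusted p-values from 0.68 to 0.87. *Fkbp7* was at 411.82, 205.33 and 229.07 TPM in SHF and at 591.9, 446.35 and 671.7 TPM in CNC.

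The genes named as the prolyl 3-hydroxylase family, not all of which need be hydroxylases, had estimates in both directions. *P3h1*, the catalytic member of the complex with *Crtap* and *Ppib*, was at 19.55, 25.64 and 63.69 TPM in SHF and at 68.82, 104.36 and 99.95 TPM in CNC. *P3h3* was at 39.65, 27.6 and 46.52 TPM in SHF and at 1.92, 13.92 and 14.38 TPM in CNC, and *P3h4* was at 139.29, 161.6 and 139.12 TPM in SHF and at 59.74, 52.72 and 121.24 TPM in CNC. The libraries of these 3 genes, named after their values were seen, did not overlap, *P3h1* with CNC higher and the other pair with SHF higher. Their limma differences were -1.46, 2.12 and 1.00, with adjusted p-values of 0.812, 0.861 and 0.845. The listed genes with the largest estimates were low in level. *Colgalt2*, a collagen galactosyltransferase, had a limma difference of 2.68, *Creb3l1*, a transcription factor of the secretory pathway, of -2.60, and *P3h2* of 2.21, with adjusted p-values of 0.874 each. Their values ranged from 0.11 to 90.03 TPM, from 0 to 43.66 TPM and from 0 to 25.49 TPM, and the lineages overlapped. Of the 9 export genes tested, 8 had a lower estimate in SHF and the libraries of 0 were apart. Of the 3 other propeptide genes tested, *Adamts2*, the N-propeptidase of collagen types I and III, was the most abundant at 217.76, 216.36 and 327.17 TPM in SHF and 484.35, 157.01 and 398.89 TPM in CNC, with both extremes in CNC.

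**Figure D4:**
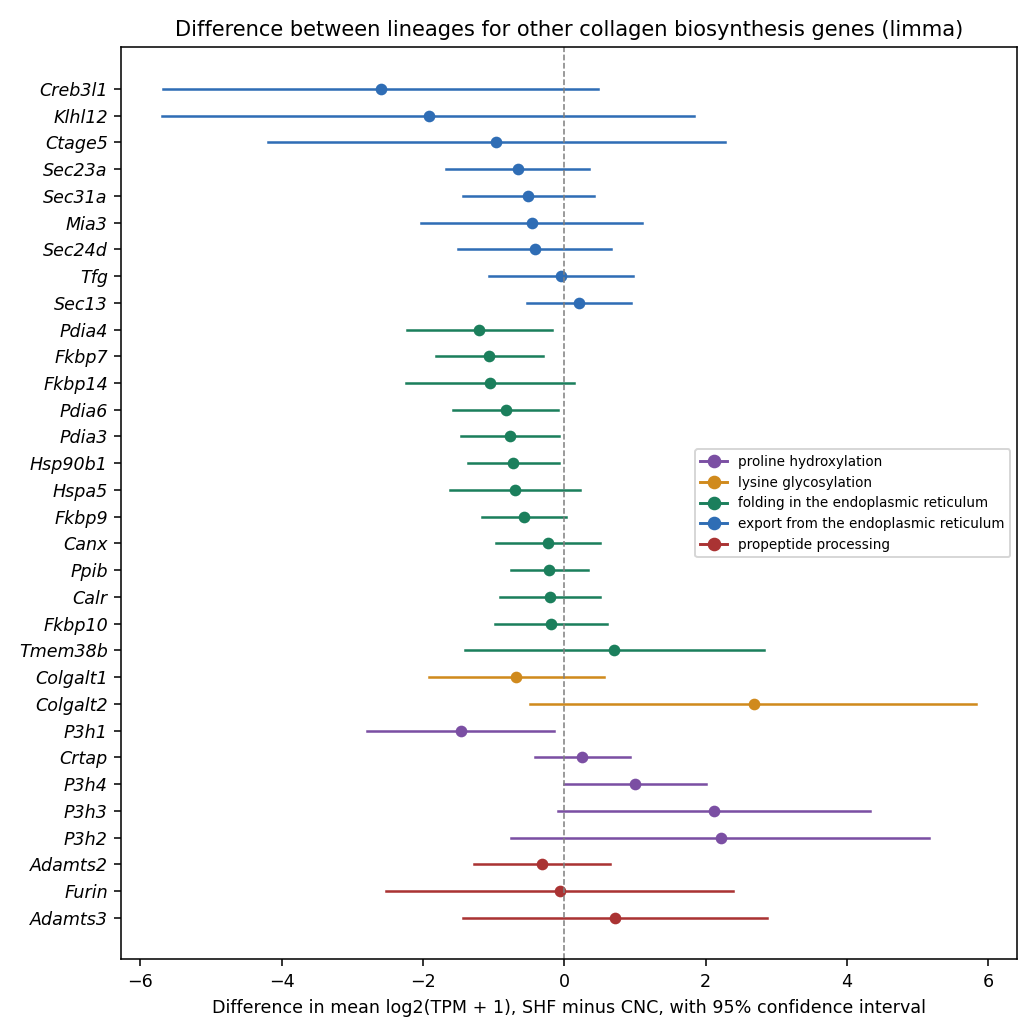
Limma difference in mean log2(TPM + 1), SHF minus CNC, for the 32 other collagen biosynthesis genes tested, with bars for the 95% confidence interval, a dashed line at 0 and colours for the role. Of the 13 folding genes 12 lie below 0 (8 with Y-linked libraries alone), and the widest intervals belong to low genes such as *Klhl12*, *Creb3l1* and *Colgalt2*.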

How the data were processed

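The matrix covers 6 libraries of sorted GFP+ cells, 3 SHF and 3 CNC, amplified by SmartSeq2, tagged with Nextera XT and sequenced on an Illumina instrument. Per the labels and the methods, the authors aligned reads with bowtie2, estimated levels with RSEM 1.2.25 on mm10 and deposited TPM, 1 column per library. Since all TPM columns share 1 total, their depth could not be recovered and counting intervals are not given. The gene annotation is not given in the sources used here. Columns were matched to libraries by library code, and 0 columns of other samples were present.

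Lineages were tested by limma 3.58.1 (R 4.3.3) with trended eBayes. The response was log2(TPM + 1) and the contrast SHF minus CNC. The 10185 genes reaching 1 TPM in 3 or more libraries entered, and an adjusted p (Benjamini-Hochberg) under 0.05 passed. The pseudocount makes differences of low genes too small. The fit was tested on simulated data. Shares, ratios and single values were compared by exact two-sided permutation tests over libraries. The labels name no batch. Same-numbered libraries did not deviate together (correlations of -0.011, -0.004 and -0.011 over genes), so no pairing was used.

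The 10 genes and all lists were chosen with earlier results of these data known. The text names the 10 genes, the 5 procollagen chains, the 3 most abundant genes and the 3 with the largest difference of the pathway and hypoxia lists, and the most abundant gene of cell type lists, and says where others were added. Positions are from GENCODE M21 and promoter windows from RefSeq, both GRCm38. Alternatives were pseudocounts of 0.1 and 5, no filter, a mean of at least 5 TPM, median-of-ratios and quantile scaling, eBayes with no trend, arrayWeights, a replicate block, each library left out, and the libraries with Y-linked transcripts. Tables were made with Python 3.11.15, pandas 2.3.3, scipy 1.17.1 and matplotlib 3.10.9. The single-cell data were not analysed here, and 1 gene that this rule names is not reported here.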

Additional observations from a re-analysis of the deposited data

How the results depend on the processing

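No member and no pathway gene passed the threshold under any of the 16 alternatives to the limma fit. Of 160 member differences, 152 kept their direction. Many of these could not change: eBayes with no trend, the changed filters and the replicate block leave the estimate of a gene as it was. The count is therefore no measure of stability. *Serpinh1* lay between -1.64 and -1.19 (adjusted limma p 0.222 to 0.983) and *Pcolce2* between -1.12 and -0.66. The 8 that changed direction belonged to *Plod1* (0.43 with Y-linked libraries, -0.42 to 0.35 with each library left out), *Plod3* (-0.14 to 0.52 with each left out) and *Bmp1* (-0.08 to 0.29 with each left out, from 0.00 without SHF replicate 2). Over all genes, 0 passed, with 597 at an unadjusted limma p under 0.05. One gene passed, higher in CNC, under a pseudocount of 5 (*Gm13305*), and 1 with Y-linked libraries (*Rps27rt*). With Y-linked libraries, where the lone SHF library is assumed to vary like the CNC libraries, the median of all genes moved from 0.025 to 0.21, the pathway median to 0.01, the SHF minus CNC difference in the *Plod2* share to -0.12 percentage points and the *Plod3* share to 1.7, and the log2 ratio of *Pcolce* to the chains to 0.88. With each library left out, the difference in the *Plod3* share ranged from -10.39 to 3.68 percentage points, in the *P4ha1* share from -0.49 to 19.89, and in the log2 ratio of *P4hb* to *P4ha1* and *P4ha2* from -0.21 to 0.46. The cause of these changes was not tested. Counts of members whose libraries did not overlap, a check chosen after seeing the data, can only stay or rise when libraries are left out and so show no stability. They were 2 to 4 with CNC higher and 0 to 2 with SHF higher with each library left out, 3 and 0 with Y-linked libraries, and per procollagen chain 5 to 7 with SHF higher and 7. The replicate block, for which the check of the pairing gave no support, called 0 genes, 0 members and 0 pathway genes, with a pathway median of -0.44. TPM keeps no depth, and 3 libraries a lineage limit the precision.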

Other observations

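A list of genes known to rise in low oxygen was also examined. Of its 12 genes, 10 could be tested and 0 passed the limma threshold. The summed level was 979 to 1314 TPM in SHF and 705 to 895 TPM in CNC, so the libraries did not overlap. By single gene the libraries of 1 (*Egln3*) were apart with SHF higher, beside 6.11% of all genes tested. That gene entered the tested set only through SHF, so this count is no support for a difference. The endothelial sums (51.22 to 580.7 against 21.79 to 37.86 TPM) and cardiomyocyte sums (87.44 to 115.9 against 0 to 37.89 TPM) were also higher in all SHF libraries, and their part was not tested. The estimate was higher in SHF for 7 and lower for 3, with a median of 0.67 beside 0.02 for all genes tested. Both figures include *Egln3*, so they lean towards SHF through the filter. *Ldha*, which makes lactate, was the most abundant, at 900.8, 371.43 and 694.66 TPM in SHF and 355.75, 492.63 and 486.46 TPM in CNC. *Pgk1*, of glycolysis, had a limma difference of -0.73 (adjusted p = 0.877), and *Adm*, a vasodilator peptide, of 0.42 (adjusted p = 0.924). *Egln3*, a prolyl hydroxylase that acts on hypoxia-inducible factors and not on collagen, was at 18.02, 25.58 and 8.74 TPM in SHF and at 0, 0.21 and 0.4 TPM in CNC. It met the filter on low values only through SHF, where it is high, so no test is given for it. *Slc2a1*, a glucose transporter, and *Bnip3*, a mitophagy receptor, had limma differences of 1.95 and 1.16 (adjusted p = 0.874 each). *Slc2a1* was at 0 in CNC replicates 1 and 3 and at 0.15 TPM in SHF replicate 2.

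*Serpinh1* is also known as a heat shock gene, and a list of 10 cytosolic heat shock and mitochondrial chaperone genes was chosen after its values were seen. None of the 10 passed the limma threshold and 0 had an unadjusted p under 0.05. Of all genes tested 0% passed, and 2.69% (higher in SHF) and 3.17% (higher in CNC) had an unadjusted limma p under 0.05. The estimate was higher in SHF for 8 and lower for 2, with a median of 0.23. Of all genes tested 5215 were higher and 4970 lower, with a median of 0.02. Their summed level was 4073 to 5418 TPM in SHF and 3544 to 4225 TPM in CNC, most of it *Hspa8* (mean 3269 TPM).

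The most abundant genes of 4 other cell type lists were *Myl9* for smooth muscle (523 to 987 TPM in SHF, 466 to 755 TPM in CNC), *Pecam1* for endothelium (31.45 to 147.5 TPM and 9.72 to 37.86 TPM), *Cd74* for leukocytes (151.0 to 386.6 TPM and 8.09 to 267.3 TPM) and *Tnnt2* for cardiomyocytes (21.49 to 87.44 TPM and 0 to 22.06 TPM). The 8 leukocyte markers summed to 177.9 to 386.6 TPM in SHF and 19.54 to 396.1 TPM in CNC, and the 5 Schwann cell markers to 1.5 to 15.32 TPM and 21.43 to 66.05 TPM. *Ptprc*, which defines leukocytes, was at 0 in all 6 libraries, while CNC replicate 2 held the myeloid markers *Lyz2* (58.85 TPM), *C1qa* (44.05 TPM) and *Csf1r* (25.85 TPM).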
